A study of Mus musculus with 6 samples.

Results

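The R4-R5 block is a set of 508 designed 7-base sequences offered to recombinant mouse Gli protein in a single binding reaction. Its members were taken by the heading of their block, as every 7-base sequence listed there, which makes 508 of the 2094 sequence lines in the 3 tables of the series. The 7 bases are positions 10 to 16 of a 16-base site. The R4 window holds 256 sequences, all combinations of bases at positions 10 to 13 before a fixed GAA. The R5 window holds another 256, all combinations at positions 13 to 16 after a fixed AGA, and 4 sequences belong to both windows.

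The reaction had 1 bound sample and 1 unbound sample, both of purified DNA mixed with protein in a tube, with no cells, genotype or time course. Protein-bound DNA was parted from free DNA by gel electrophoresis, and each fraction was extracted, amplified and sequenced. The sample titles name Gli1 and the R4 to R6 libraries, as the block headings do, while the library characteristics of the same samples name CTCF libraries. Titles and headings were followed. The headings give no methylation state for the block. With 1 sample in each fraction, no difference below has a replicate check, errors are counting standard errors (SE), and no p-value was computed.

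Gli proteins are zinc finger transcription factors that carry the Hedgehog signal to its target genes. Such proteins hold a row of zinc fingers, and neighbouring fingers touch neighbouring short stretches of the DNA, so bases next to a core site can be read by other fingers of the same protein. When all sequences compete for the same protein in a tube, the bound to unbound ratio of a sequence, relative to that of another, measures its relative affinity.

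The sites that carry the main comparisons are written out here 5′ to 3′. The first 9 bases are those most frequent in the 16-base table of the same series, in which all 508 members are found after these bases, while the R4-R5 block itself lists the last 7 bases. Capitals mark the bases varied in the window of each sequence, and all 7 where it belongs to both windows.
Strongest R4 site: gaccacccaCGTTgaa
Strongest R4 site without G11: gaccacccaCATTgaa
Strongest R4 site without C10 and G11: gaccacccaACACgaa
Weakest R4 site: gaccacccaAAAGgaa
Strongest R5 site: gaccacccaAGACGAA
Strongest R5 site without G14: gaccacccaagaACAA
Weakest R5 site: gaccacccaagaCATC
Site with the most frequent bases: gaccacccaAGATGAA
Its G11A variant: gaccacccaAAATgaa
Its T13G variant: gaccacccaAGAGGAA

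The block held 341388 bound and 523242 unbound reads. A sequence had between 36 and 3430 bound reads, with a median of 461, and between 135 and 8402 unbound reads, with a median of 851.5. The counting SE of the natural log of a ratio was 0.06 at the median and 0.18 at the highest. All 508 sequences passed the minimum of 10 reads in each fraction.

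Gli bound the 508 sequences over a 108-fold range. CGTTGAA was at the top with 2586 bound and 297 unbound reads, a ratio of 8.69 and a bound share of 89.7% (95% Clopper-Pearson interval 88.5 to 90.8). AAAGGAA was at the bottom with 41 bound and 513 unbound reads, a ratio of 0.0808 and a bound share of 7.40% (5.36 to 9.91). Bound shares are shares of reads, not scaled for depth, and so do not give the share of DNA that was bound. Neighbours in the order of 508 ratios lie too close together for the counting SE to part them, and 0 of 507 differed by more than 2 counting SE. Of the other sequences, 2, CGATGAA at rank 2 and CGACGAA at rank 3, lay within 2 counting SE of the top.

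Counted from the ratio of the block's read totals, 0.652, 109 sequences (21.5%) were at least 2-fold above and 194 (38.2%) at least 2-fold below. Over both blocks of the same table, 25.9% of 572 sequences were above by this measure and 33.9% below. These 572 include the 508 themselves. The other 64 form the R6 block, read below as a repeat of the members with C10, with 39 above and 0 below. The count above in the R4-R5 block was 66 when the centre was the ratio of the whole table's totals. Its count below was 122 when the centre was the block's median. The windows differed in their balance, with 71 above and 68 below in R4 and 41 above and 126 below in R5. All 4 sequences of both windows are counted in each.

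In the R4 window, binding was highest where C stood at position 10 or G at position 11, and highest of all with both. The 16 sequences with both bases had a median ratio of 3.58, from 0.791 for CGGGGAA to 8.69 for CGTTGAA, and 15 of them were at least 2-fold above the block's ratio. The 48 with C10 and another base at 11 had a median ratio of 1.41, from 0.367 to 3.53. The 48 with G11 and another base at 10 had a median of 1.57, from 0.365 to 4.59. These single-base classes overlapped almost wholly, and 27 sequences of each were at least 2-fold above.

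The 144 R4 sequences with neither base had a median ratio of 0.370, and 68 of them were at least 2-fold below the block's ratio. These 68 were all of the R4 sequences that were so far below. Only 2 of the 144 were at least 2-fold above, and the highest, ACACGAA, had 461 bound and 315 unbound reads and a ratio of 1.46. The lowest member with both bases, CGGGGAA, had 1781 bound and 2252 unbound reads. It was the only one of the 16 below ACACGAA.

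The 7 highest R4 sequences all began with CG. After CGTTGAA came CGATGAA with 1551 bound and 213 unbound reads (7.27), CGACGAA with 1022 and 144 (7.08), CGTCGAA with 1523 and 223 (6.82) and CGTAGAA with 2044 and 324 (6.30). The 4 lowest above AAAGGAA also lacked both C10 and G11. They were TTCCGAA with 91 bound and 886 unbound reads (0.103), ATCGGAA with 118 and 1094 (0.108), AAGGGAA with 104 and 917 (0.114) and ATCTGAA with 110 and 960 (0.115).

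Positions 12 and 13 of R4 each had 1 unfavourable base. C12 had a mean log ratio of -1.17 ± 0.83, against -0.23 to -0.21 for the other bases there (SD, n = 64 sequences each). G13 had -1.10 ± 0.84, against -0.29 to -0.18 for the other bases. Of the 25 lowest R4 sequences, 18 had C12 and 12 had G13. Among the 25 highest, 19 had C10 and 18 had G11, with 2 holding C12 and 1 holding G13.

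Every pair of R4 sequences that differ by 1 base was also compared, 64 contexts for each exchange of bases. At least 2-fold differences beyond 2 counting SE were found in 45% of 1536 pairs. Position 10 had the most, in 205 of 384 pairs, followed by position 11 with 191, position 12 with 170 and position 13 with 125. C at position 10 was higher than A in 64 of 64 contexts, by a median of 3.64-fold, and higher than T in 64 of 64, by 3.32-fold. Against G it was higher in 63, by 3.23-fold, the exception being CAAGGAA.

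At position 11, G was higher than T in 64 of 64 contexts, by a median of 3.52-fold, and higher than C in 64 of 64, by 3.19-fold. It was higher than A in 62. T at position 12 was higher than C in 64 of 64, by 2.51-fold. A was higher than C there in 59 contexts, and G was higher than C in 56. A, G and T at that position had median differences of 1.06-fold or less from each other. At position 13, A and T were close. T was higher in 32 of 64 contexts and lower in 32, and 0 differed by 2-fold. G at position 13 was lower than A in 61 contexts, lower than T in 61 and lower than C in 56.

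The size of these exchanges depended on the bases around them. From A to C at position 10, the log ratio was higher by 0.43 between AGACGAA and CGACGAA, and by 2.65 between AAATGAA and CAATGAA. From A to G at position 11 it ranged from -0.24, between GAAGGAA and GGAGGAA, to 3.31, between AAATGAA and AGATGAA. The latter is a 27.3-fold difference, the largest of any R4 pair. AAATGAA had 76 bound and 569 unbound reads, and AGATGAA had 3292 and 898.

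Against CGTTGAA, 8 of its 12 single-base variants were at least 2-fold lower. Since it is the highest of its window, no variant could be higher. G11T was lower by 6.03-fold and G11A by 2.46-fold. At position 10 the variants ran from C10G, 4.56-fold lower, to C10A, 2.60-fold lower. At position 12, T12C was 3.29-fold lower and T12A was within 2 counting SE, with a log difference of -0.18 ± 0.10. At position 13 the variants ran from T13G, 1.76-fold lower, to T13C, 1.28-fold lower.

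The sequence with the most frequent bases, AGATGAA, ranked 13 in the block with a ratio of 3.66. Position 13 is a tie in the block itself, and T was taken from the 16-base table. Of its 21 single-base variants 13 were at least 2-fold lower and 0 at least 2-fold higher. At any fold, 16 were lower and 2 higher by more than 2 counting SE. The higher ones were A10C, at 1.98-fold, and T13C, at 1.25-fold. A12T, T13A and A16T lay within 2 counting SE of it.

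The 5 largest losses from AGATGAA were replacements of its G bases. At position 11, G11A was 27.3-fold lower, G11T 11.3-fold and G11C 4.72-fold, close to the 4.52-fold of A12C. At position 14, G14A was 15.9-fold lower, G14C 7.89-fold and G14T 7.83-fold. A was the lowest replacement of G at both positions. No sequence of the block lacks G at both, since R4 keeps G14 and R5 keeps G11, so the loss of both was not measured. At position 15 the variants ran from A15G, 3.68-fold lower, to A15T, 1.85-fold, and at position 16 the most affected was A16C, 2.42-fold lower.

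In the R5 window, G at position 14 set the highest sequences apart. The 64 sequences with G14 had a median ratio of 1.61, from 0.560 for AGAGGGG to 4.59 for AGACGAA, and 41 of them were at least 2-fold above the block's ratio and 0 at least 2-fold below. The 192 with another base there had a median of 0.263, from 0.102 for AGACATC to 0.893 for AGAACAA, with 0 above and 126 below. This base divided all 41 R5 sequences above from all 126 below. The classes overlapped in a small region, where 14 of the 64 lay below AGAACAA and 8 of the 192 lay above AGAGGGG.

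The highest R5 sequences, after AGACGAA with 2508 bound and 546 unbound reads (4.59), were AGACGTT with 2034 and 449 (4.53), AGACGAT with 1377 and 320 (4.30), AGATGAT with 1583 and 407 (3.89) and AGATGAA (3.66). AGACGTT and AGACGAT lay within 2 counting SE of AGACGAA, with log ratios of 1.51 ± 0.05 and 1.46 ± 0.06 against 1.52 ± 0.05. Counting error thus does not settle which of them is the strongest, and AGACGAA is used as the R5 reference below. At the bottom, AGACATC had 71 bound and 698 unbound reads. Above it stood AGACAAG with 135 and 1128, AGACCCG with 121 and 1011, AGACAAC with 60 and 503 (each 0.120) and AGACAGG with 326 and 2540 (0.129). All 5 of the lowest held C13 followed by A or C. Of the 25 lowest, 20 had C13.

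At position 14, G was higher than A in 64 of 64 contexts, by a median of 7.99-fold, higher than C in 64, by 5.41-fold, and higher than T in 64, by 5.33-fold. T was higher than A in all 64 as well, by 1.55-fold. Over the R5 window, 21.4% of 1536 single-base pairs differed at least 2-fold and by more than 2 counting SE. Position 14 accounted for 186 of these, position 13 for 96, position 15 for 33 and position 16 for 13. The largest difference was 31.7-fold, between AGACGAA and AGACAAA, which had 73 bound and 507 unbound reads.

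Positions 15 and 16 had small preferences, which were wider when G14 was present. With G14, A15 had the highest mean log ratio of its position, 0.68 ± 0.63, followed by T15 with 0.54 ± 0.57, C15 with 0.36 ± 0.52 and G15 with 0.06 ± 0.40 (SD, n = 16 sequences each). Without G14, the means lay between -1.51 for C15 and -1.11 for A15 (n = 48 each). With G14, T16 had 0.71 ± 0.58, A16 had 0.54 ± 0.61, C16 had 0.22 ± 0.47 and G16 had 0.18 ± 0.49. Without G14, all 4 bases at position 16 lay between -1.41 and -1.20.

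A and T at position 16 were close in most contexts. T was higher in 34 of 64 and lower in 30, and 0 differed by 2-fold. C and G at this position were also close, with 0 of 64 differing by 2-fold. Against AGACGAA, A16T was within 2 counting SE, at -0.07 ± 0.08, while A16C and A16G were 2.54-fold and 2.44-fold lower. Of its 12 variants, none of which could be higher by choice of the reference, 7 were at least 2-fold lower, and 11 were lower by more than 2 counting SE at any fold. At position 13, C13G was 4.08-fold lower and C13T 1.25-fold lower. At position 15, A15G was 3.07-fold lower and A15T 1.65-fold lower.

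In R5, G was the lowest base at position 13 when G14 was present and the highest when it was not. With G14, means of the log ratio were 0.77 ± 0.44 for C13, 0.69 ± 0.29 for A13, 0.52 ± 0.46 for T13 and -0.33 ± 0.25 for G13 (SD, n = 16 each). Without G14, G13 was the highest, at -0.91 ± 0.26, and C13 the lowest, at -1.66 ± 0.40 (n = 48 each). The exchange of C13 for G13 ran from a log difference of -1.41, between AGACGAA and AGAGGAA, to 1.24, between AGACATA and AGAGATA. G13 was at least 2-fold higher in 34 contexts and at least 2-fold lower in 14. G13 had the smallest spread of any base at this position, with an SD of 0.36 over 64 sequences against 0.86 to 1.13 for the others.

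All 16 R5 sequences with G13 and G14 lay within 2-fold of the block's ratio, between 0.560 and 1.15. Of the 48 R5 sequences with G14 and another base at 13, 41 were at least 2-fold above, and 1 lay below AGAACAA, the highest sequence without G14. The number of reads also went with the number of G. Across the 508 sequences the log of total reads had r = 0.71 with the count of G and r = 0.38 with the log ratio, where read totals include the bound reads themselves. The part of read number in these ratios was not tested.

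The 4 sequences shared by both windows show the base at position 13 with all other bases at their most frequent. AGACGAA had a ratio of 4.59, AGATGAA 3.66, AGAAGAA 3.37 (1614 bound and 479 unbound reads) and AGAGGAA 1.12 (2379 and 2115). T and A did not differ beyond 2 counting SE, with T13A at -0.08 ± 0.06. C was higher than T by 0.23 ± 0.06, and G was 3.26-fold lower than T.

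In R4, where G14 is fixed, ratios with G13 ran from 0.0808 to 4.94. Among those that begin with CG, CGTGGAA, with T12, had 2497 bound and 505 unbound reads and a ratio of 4.94. With A12 the ratio of CGAGGAA was 1.90, with C12 that of CGCGGAA was 1.53, and with G12 that of CGGGGAA was 0.791. Over all 16 pairs of bases at positions 10 and 11, the order of T12 and A12 before G13 was the other way, with median ratios of 0.296 and 0.397. If the changes T12G and T13G added up on the log scale, CGGGGAA would have a ratio of 1.79, and the deviation was -0.81 ± 0.10. For T12A with T13G, the sum gave 4.13 and the deviation was -0.78 ± 0.12.

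An additive model, with 1 effect per base and position, left deviations far above counting error in both windows. It held 82.2% of the variance of the log ratio in R4 and 81.7% in R5, with residual SDs 7.60 and 6.29 times the median counting SE. In R4, 32 of 256 sequences lay at least 2-fold from their additive value, and in R5 21 of 256 did. In R4 the largest deviations below were AAATGAA (ratio 0.134, additive value 0.494), CGGGGAA (0.791, 2.69) and AAACGAA (0.186, 0.531). Those above were AGTGGAA (2.34, 0.719), GTCGGAA (0.238, 0.0884) and ACACGAA (1.46, 0.573).

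In R5 the 3 largest deviations below all held G13 and G14. AGAGGAG had a ratio of 0.616 and an additive value of 1.88, AGAGGTG 0.613 and 1.71, and AGAGGAC 0.662 and 1.81. The 3 largest above all held C13 and G14. AGACGTT had a ratio of 4.53 and an additive value of 1.61, AGACGAA 4.59 and 1.72, and AGACGAT 4.30 and 1.76.

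Terms for adjacent positions gained more than terms for positions further apart. Terms for the 3 adjacent pairs raised the share of variance to 95.5% in R4 and 96.7% in R5, whereas terms for the 3 pairs further apart raised it to 83.6% and 82.9%. In R4 the gains of single pairs were nearly equal, at 4.35 percentage points for positions 10 and 11, 4.49 for 11 and 12, and 4.47 for 12 and 13. In R5 the pair 13 and 14 stood out with 12.8 points, against 1.77 for 14 and 15 and 0.478 for 15 and 16. The R5 pair 14 and 16, which is not adjacent, gained 0.711 points, more than 15 and 16. With all 6 pairs the model held 96.9% in R4 and 97.9% in R5, with residual SDs still 3.61 and 2.39 times the counting SE.

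The pair of positions 10 and 11 shows what these terms hold. Before G11, the median log ratio was 1.28 with C10 and 0.80 with A10 (n = 16 each). Before A11, it was 0.41 with C10 and -1.72 with A10, with G10 at -0.74 and T10 at -0.78. AA was the lowest of the 16 pairs at these positions, and TT was next at -1.58. Removing both C10 and G11 from CGTTGAA gave AATTGAA, with a ratio of 0.301 against 1.35 if the single changes added up, a deviation of -1.50 ± 0.11.

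At positions 11 and 12, C12 had its lowest medians after C or T. The median log ratio was -1.90 for CC and -1.83 for TC, against -0.36 for GC (n = 16 each). Some changes together were less harmful than apart. From CGTTGAA, G11T with T12G gave CTGTGAA at 2.19, against 0.521 from the sum of both changes, a deviation of 1.44 ± 0.10. G11C with T12G gave CCGTGAA at 2.44, against 0.717.

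Over all 54 variants of CGTTGAA with 2 changed bases, 4 were at least 2-fold above the sum of the single changes and 5 at least 2-fold below. Over the 54 of AGACGAA, 13 were above and 0 below, with a median deviation of 0.41. Each reference was chosen as the highest of its window, so such deviations, here and above, are tilted upward. The largest were AGAGCAA, with a ratio of 0.592 against 0.0607 from the sum, and AGAGAAA, with 0.341 against 0.0355. Both exchange C13 for G and lose G14, and both sums lie below 0.0808, the lowest ratio of the block.

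Median ratios were lower the more bases differed from the strongest sequence of the window, and the classes overlapped. The reference is the highest by choice, so part of this fall is built in. In R4 the median ratio was 3.24 with 1 mismatch from CGTTGAA (n = 12), 1.60 with 2 (n = 54), 0.518 with 3 (n = 108) and 0.243 with 4 (n = 81). With 2 mismatches ratios ran from 0.171 for TTTTGAA to 7.08 for CGACGAA. Counted from AGATGAA, the R4 medians were 1.53, 0.719, 0.601 and 0.460. With at least 100 reads in each fraction, the median log ratio at 4 mismatches from CGTTGAA was -0.78 rather than -1.41. Unbound reads were 135 or more throughout, so that minimum dropped sequences by low bound reads, which itself raises the median. In R5 the medians were 1.84, 0.615, 0.348 and 0.270 from AGACGAA. The R5 sequences with all 4 bases changed were within a narrow range, from 0.145 to 0.596, whereas those with 3 changed ran from 0.102 to 3.49. The top of the latter class was AGATGTT, which keeps G14 and had 2447 bound and 701 unbound reads.

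The same bases were measured again within the reaction. The R6 block lists 64 combinations of 3 bases without their positions. They were read here as positions 11 to 13 after C10 and before GAA, a reading made with the values known, and had r = 0.996 with the log ratios of the 64 R4 sequences so matched. R6 minus R4 had a median of -0.06 and was below 0 in 51 of 64 sequences. The differences had an SD of 0.08, against a median counting SE of 0.07, and after centring 59 of 64 lay within 2 counting SE. The largest differences after centring were those of CCCGGAA (0.494 in R4 and 0.380 in R6), CTCAGAA (0.615 and 0.487) and CGTCGAA (6.82 and 7.57). Both blocks come from the same tube and the same samples, so this spread does not cover a repeated reaction, and it covers members with C10 alone.

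Sequences with a CpG were found on both sides of the range, depending on where it lay. In R4, the 16 with CpG at positions 10 and 11 had a median log ratio of 1.28, against -0.61 for the other 240. The 16 with CpG at 12 and 13 had -1.49, against -0.48. This class joins C12 and G13, the unfavourable bases of these positions. C12 before A, C and T had medians of -1.04, -1.37 and -1.10. G13 after A, G and T had medians of -0.93, -1.36 and -1.22. In R5, the 16 with CpG at 13 and 14 had 0.68, against -1.16, and the 16 with CpG at 14 and 15 had -1.39, against -1.08. A CpG at 14 and 15 excludes G14, and the median of all 192 R5 sequences without G14 was -1.34. The class with CpG at 10 and 11 is the one with C10 and G11, and medians of the log ratio were 0.34 with C10 alone, 0.45 with G11 alone and -0.99 with neither. At positions 13 and 14 of R5, the median for CG was close to the 0.71 of AG. The remaining R4 classes were CpG at 11 and 12, with -0.18 against -0.59, and at 13 and 14, with -0.26 against -0.62. The remaining R5 class, CpG at 15 and 16, had -1.30 against -1.08.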

How the data were processed

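The data are read counts of DNA recovered bound to, or free of, recombinant mouse Gli protein after a gel, with PCR of at least 8 cycles, per the labels' protocols. The authors deposited whole-number counts per sequence, not scaled for depth, and the ratio of bound to unbound counts, per the file headers. The deposited table also has an unnamed final column, which matched the negative natural log of that ratio within 0.0005. What software counted the reads is not given in the sources used here. The bound and unbound columns were matched to the samples titled R4-R6 by the block headings of the table, which fit no other title.

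Relative binding was the natural log of bound over unbound counts, after 0.5 was added to each, and sequences needed 10 reads or more per fraction. The counting SE of a log ratio came from the reciprocals of its bound and unbound counts, added and square-rooted. Amplified reads carry no molecular identifiers here, so SEs and intervals cover counting error only. Log differences between sequences do not depend on depth scaling. Means and SDs given with n are over sequences, which are not replicates. An exchange such as G11A gives the reference base, the position from the first base of the 16-base site, and the variant base. A difference between sequences was counted when it was at least 2-fold and beyond 2 counting SE. The additive model was ordinary least squares, and each pair of positions added 9 terms. Named sequences were the 5 highest and 5 lowest of each window, single-base variants of the references, the 4 sequences of both windows, the 3 largest residuals in each direction, and the 3 largest differences of the repeat. Other sequences, changes of 2 bases, base exchanges over contexts, read totals and triplets were chosen after values were seen. The members and all lists were chosen with earlier results of these data known. The model step was tested on simulated data. Alternatives covered the pseudocount, the read minimum, the centre and fold of calls, medians, weighted fits, the weakest 25% of sequences, and the deposited ratio. The tables of the other reactions were not analysed here, except for the 16-base sequences used to show the site. Computations used Python 3.11.15, numpy 2.4.6, pandas 2.3.3 and scipy 1.17.1.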

Additional observations from a re-analysis of the deposited data

How the results depend on the processing

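A log value was taken as moved past the SD of the repeat within the reaction, 0.08, a share of variance past 1 percentage point, and a count past 1.5 times. Of 513 values under the alternatives, 471 stayed within these limits. All 101 values recomputed did so with no pseudocount, with 1 added to each count and with no read minimum, and all 55 did with the deposited ratio. All 508 sequences had already passed the minimum of 10 reads. The 101 values without a minimum were therefore the same by construction, and they are part of the 471. The strongest sequence of each window was the same with each pseudocount, each read minimum and the deposited ratio. The other alternatives do not enter its choice and could not change it. With at least 100 reads in each fraction, 460 of 508 sequences were left. All 508 had at least 135 unbound reads, so sequences were dropped by their bound reads, which are part of the ratio. The count at least 2-fold below was 147 rather than 194, and that above stayed at 109. Values that moved in this setting therefore moved in part by selection of stronger binders. With all sequences, the spans between the highest and lowest base mean were 1.29, 1.33, 0.97 and 0.91 at positions 10 to 13 of R4. At positions 13 to 16 of R5 they were 0.29, 1.99, 0.38 and 0.26. With at least 100 reads the moved spans were 1.15 (position 10), 0.85 (12) and 1.11 (13) in R4. In R5 they were 1.89 (14), 0.51 (15) and 0.34 (16). In the same setting the median log ratio was -0.78 at 4 mismatches in R4, -0.90 at 3 in R5, -1.16 for AA at positions 10 and 11, -0.99 for CpG at 12 and 13 and 0.16 for CpG at 13 and 14 of R4. With medians in place of means the spans were 1.49, 1.45 and 1.02 at positions 10, 11 and 13 of R4 and 0.80, 2.10 and 0.60 at 13, 14 and 15 of R5. Without the 4 sequences of both windows they were 1.42 at position 10 of R4 and 0.29 at position 15 of R5. The count above was 66 with the whole table's centre and 62 at 3-fold, and that below was 122 with the median as centre and 116 at 3-fold. At any fold beyond 2 counting SE, 11 variants of AGACGAA were lower and 2 of AGATGAA higher, and at 3-fold 5 of CGTTGAA were lower. Weighted fits gave additive shares of 77.9% in R4 and 76.1% in R5, with gains of 6.16 points for positions 11 and 12, 6.24 for 12 and 13 and 18.4 for 13 and 14. Without the weakest 25%, the R4 share was 75.8%, with gains of 5.98 and 6.75 for the same R4 pairs and 3.67 (R4) and 2.71 (R5) for the 3 pairs further apart. Counted from AGATGAA, median log ratios by mismatches were 0.40, -0.33, -0.51 and -0.78 for 1 to 4 in R4, and 0.44 and -1.42 for 1 and 4 in R5. No paired analysis was possible because each fraction was measured once. Counting error was widest for the members with the fewest reads, of which the least had 36 bound reads.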

Other observations

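These descriptions were chosen after the values were seen and have no test. The same 3 bases were read at positions 10 to 12 in R4 and at positions 13 to 15 in R5, each as the median over the 4 bases that follow. Over 64 triplets the medians had r = 0.51 across triplets, which share libraries and are not replicates. Among the 16 with G in the middle r was 0.53, and among the other 48 it was -0.09. CGA, AGA and CGT were the 3 highest at positions 13 to 15, with medians of 1.04, 0.96 and 0.90, and at positions 10 to 12 they held ranks 2, 3 and 1.

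The 4 triplets whose medians differed most between the places all begin with C and lack the middle G. CAT had a median log ratio of 1.08 at positions 10 to 12, rank 6, and -1.93 at positions 13 to 15, rank 61. CAG had 0.69, rank 12, and -2.02, rank 63. CCG had 0.77, rank 7, and -1.83, rank 59. CAA had 0.47, rank 17, and -2.03, rank 64, the lowest. At position 10, C had the highest median of the 4 bases before each base at position 11. At position 13, C had the lowest median before A, before C and before T.

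ACACGAA was the highest R4 sequence without C10 and G11, and AGAACAA the highest R5 sequence without G14. With the same triplet, ACATGAA had 472 bound and 608 unbound reads (0.777), ACAAGAA 228 and 437 (0.522) and ACAGGAA 197 and 873 (0.226). In R5, AGAACAT had 328 and 433 (0.758), AGAACAG 430 and 780 (0.552) and AGAACAC 164 and 336 (0.489).

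Runs of G had the most reads. GGGGGAA had 11602 reads, the most in the block, with a ratio of 0.381, and AGAGGGG had 6386 with 0.560. The fewest reads were 281, for AGAAAAC with a ratio of 0.197 and for AGAAACC with 0.192.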
